A study of Mus musculus with 6 samples.

Results

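The genes described here are the enzymes that make, destroy and read out cyclic AMP: 59 of the 30631 genes listed in each of the 6 libraries, taken by gene symbol alone (Pde or Adcy followed by a digit, Prkac, Prkar, or Akap followed by a digit). They comprise 26 genes with a phosphodiesterase symbol, 10 adenylyl cyclases, 7 genes of protein kinase A (PKA) subunits, of which Prkaca-ps1 is a processed pseudogene, and 16 A-kinase anchoring proteins. RNA sequencing was done on mouse embryonic stem cells that had been grown on embryonic fibroblast feeders, differentiated in hanging drops toward cardiomyocytes like those of the sinoatrial node (the heart's pacemaker), and sorted at stage 7+1 days for CD166, a surface protein encoded by Alcam. Of the 6 libraries, 3 are labelled Shox2-/-, lacking the homeodomain factor Shox2 that pacemaker development requires, and 3 are labelled wild type (WT, Shox2+/+). All 3 titles of libraries labelled Shox2-/- carry the prefix J2 and those labelled WT carry 3 different prefixes. What a prefix stands for is not stated, and genotype and whatever it marks cannot be told apart. The prefixes of libraries 1 and 2 labelled WT, H1II and H1I, are nearly alike, and both titles carry Diff9, a number whose meaning is not stated. Between these libraries 13.1% of tested genes differed beyond counting error, against 42.6% to 64.7% for the other pairs. Whether they are separate replicates is not stated. Since no source used here says that the libraries of a group came from separate cultures, the p-values describe only how these libraries spread, which may be technical.

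Cyclic AMP is made from ATP by adenylyl cyclases, most of which are switched on or off by G proteins coupled to hormone receptors, and is degraded by phosphodiesterases, each family with its own preference for cyclic AMP or cyclic GMP. It frees the catalytic subunits of PKA from their regulatory subunits, while anchoring proteins hold the kinase beside its substrates, and the freed kinase can activate the transcription factor CREB. In pacemaker cells, cyclic AMP opens HCN channels directly, and PKA phosphorylates calcium-handling proteins, through which adrenergic stimulation quickens the beat.

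Values are read counts per gene divided by 1 size factor per library (normalized counts), and differences are of log2(normalized count + 1), Shox2-/- minus WT, from limma. Reads recovered from these values came to between 13504683 and 34650564 per library. The check of the targeted gene went against its label: Shox2 stood at 200.7, 548 and 373 normalized counts in libraries labelled Shox2-/-, against 89.6, 83.4 and 31.4 in those labelled WT. No value here shows which exons its reads came from, so each direction below rests on the labels alone. Alcam, the sort marker, was abundant in all 6 libraries, with a log2 difference of -0.47 (adjusted p = 0.242). It was lower without overlap, as were 10.8% of all tested genes. Its values were 4176.5, 5312 and 4304 in libraries labelled Shox2-/-, against 6591, 6526 and 5841 in those labelled WT. None of the cell type markers examined was at 0 in any library. The summed level of 12 cardiomyocyte markers ranged between 14981 and 39125 normalized counts in libraries labelled Shox2-/- and between 11750 and 32670 in those labelled WT, and that of 10 sinoatrial node markers between 6934 and 7615 in libraries labelled Shox2-/- and between 5874 and 9071 in those labelled WT. Of these 10, 3 were higher, Shox2 among them, and 2 lower at an unadjusted p under 0.05 (6.92% and 7.23% of all tested genes were). Groups did not overlap for 3 that were higher and 2 that were lower (12.8% and 10.8% of all tested genes). Smoc2 alone made up 5712 of the 9071, in library 3 labelled WT. The most alike pair of libraries was 1 and 2 labelled WT, with a median absolute log2 ratio of 0.092. The next most alike pairs crossed the groups: library 3 labelled Shox2-/- with libraries 2 and 1 labelled WT, at 0.185 and 0.198. All of these libraries carry Diff9 in their titles. Pairs within the libraries labelled Shox2-/- ran between 0.232 and 0.290. Library 3 labelled WT stood at 0.330 and 0.303 from libraries 1 and 2 of its group, and the highest ratio of any pair was 0.403.

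Only genes reaching 10 normalized counts in 3 or more libraries were tested, which 52 of the 59 did. The 7 that did not are Adcy4, Akap3, Akap4, Akap14, and the photoreceptor genes Pde6a, Pde6g and Pde6h. None of the 52 was called at an adjusted p under 0.05, nor was any of the 17034 genes tested (0%), the lowest adjusted p being 0.0954 over all genes and 0.208 among the cyclic AMP enzymes. A voom fit on the recovered reads also called 0 genes, and 303 once sample quality weights were added, Pde1c and Akap11 among them. At an unadjusted p under 0.05, 4 of the 52 were higher in the libraries labelled Shox2-/- (6.92% of all tested genes were) and 9 were lower (7.23% of all tested genes were). The groups did not overlap for 5 genes that were higher (12.8% of all tested genes) and 10 that were lower (10.8% of all tested genes). Their median difference was -0.07, against 0.01 over all tested genes, and their median absolute difference was 0.26, against 0.21. Without library 1 labelled Shox2-/-, 8 of the 52 had an unadjusted p under 0.05, 4 of them lower, and the share of all tested genes was 8.73% in that setting, against 14.2% with all 6 libraries. The sign of 19 of the 52 genes, none of them among the 13 with an unadjusted p under 0.05, turned in at least 1 alternative setting, and the counts of higher and lower genes by class below include them.

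**Figure D1:**
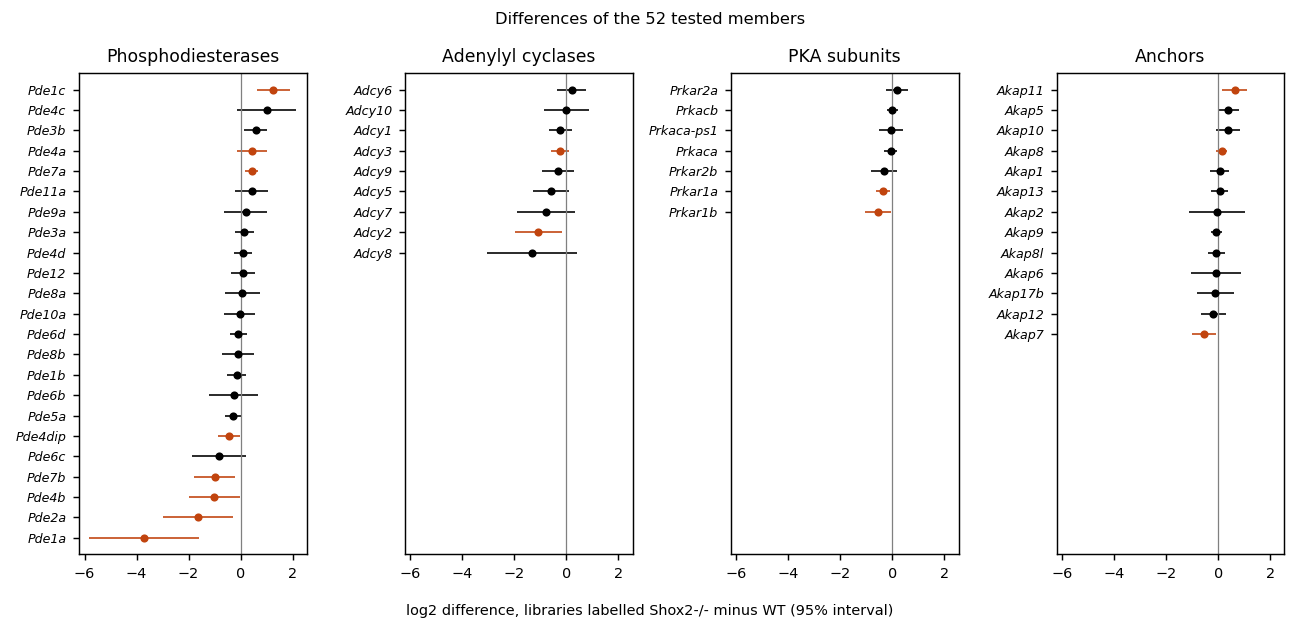
Log2 difference of normalized counts (horizontal axis, Shox2-/- minus WT) for each of the 52 tested genes by class, with points for the fitted value and bars for its 95% interval; genes whose groups do not overlap are in orange. Differences run between -3.70 for Pde1a and 1.26 for Pde1c, and of the 9 adenylyl cyclases 8 lie below 0.

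The promoter sequences below are shown because they hold the letters that the pathway's own transcription factor binds, or those of a homeodomain, beside genes whose values are described further on. Sequences are from RefSeq, build GRCm38.p6, read 5′ to 3′ on the gene's strand, and 47 of the 59 genes had at least 1 promoter there, with 90 windows of 250 bases before an annotated start. The palindromic cyclic AMP response element TGACGTCA was in 1 of the 90 windows, that of Prkar1a, and in 1.55% of all 32851 promoter windows. Its shorter core TGACG, searched on both strands and contained in the palindrome, was in 14 windows of 12 genes, which is 15.6% of their windows against 17.8% of all windows, and 25.5% of the 47 genes against 19.8% of all genes with a promoter. The homeodomain core TAATTA, also a palindrome, was in 2 windows, those of Pde7b and Akap17b, and in 4.84% of all windows. Capitals mark every match to TGACG or its reverse complement, and the whole palindrome in Prkar1a; in Pde7b they mark TAATTA. Bases that overlap an annotated exon were left off, 127 of the 250 for Pde1a and 142 for Pde7b. Except for Akap11, the windows printed lie within the annotated span of their gene, before a start inside it.
Prkar1a, chr11:109650699-109650920, plus strand: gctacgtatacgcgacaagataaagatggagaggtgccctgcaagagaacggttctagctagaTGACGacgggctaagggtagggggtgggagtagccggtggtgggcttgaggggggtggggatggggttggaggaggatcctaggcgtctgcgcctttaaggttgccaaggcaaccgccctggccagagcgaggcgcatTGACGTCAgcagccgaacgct
Pde1a, chr2:80039030-80039152, minus strand: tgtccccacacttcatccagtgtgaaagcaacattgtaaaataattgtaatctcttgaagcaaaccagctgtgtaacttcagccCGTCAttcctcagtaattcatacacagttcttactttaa
Akap11, chr14:78536861-78537110, minus strand: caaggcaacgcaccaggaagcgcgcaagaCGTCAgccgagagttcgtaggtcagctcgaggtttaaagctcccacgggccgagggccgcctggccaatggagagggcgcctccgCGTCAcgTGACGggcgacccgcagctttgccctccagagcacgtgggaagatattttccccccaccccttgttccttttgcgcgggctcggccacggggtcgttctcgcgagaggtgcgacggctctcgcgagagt
Pde7b, chr10:20548471-20548578, minus strand: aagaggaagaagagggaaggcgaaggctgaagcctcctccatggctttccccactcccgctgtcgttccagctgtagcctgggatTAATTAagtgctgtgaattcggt
Nr4a1, chr15:101266596-101266845, plus strand: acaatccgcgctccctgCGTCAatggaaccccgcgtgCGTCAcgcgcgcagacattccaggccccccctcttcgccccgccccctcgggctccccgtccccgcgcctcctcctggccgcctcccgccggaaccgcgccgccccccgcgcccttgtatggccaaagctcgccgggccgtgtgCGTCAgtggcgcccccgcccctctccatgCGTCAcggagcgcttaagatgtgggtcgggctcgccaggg
The Prkar1a palindrome begins 49 bases before the annotated start next to its window. Nr4a1, an orphan nuclear receptor gene induced through CREB and not itself a cyclic AMP enzyme, holds 4 core matches and Akap11 holds 3. A match is a string of letters, and no binding was measured here.

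The genes of the calcium- and calmodulin-stimulated phosphodiesterases, which hydrolyse both cyclic nucleotides, differed in opposite directions. Pde1a (ENSMUSG00000059173, chr2:79834453-80129458 in GRCm38, minus strand) had 5.19, 18.8 and 43.0 normalized counts in libraries labelled Shox2-/-, against 131, 119 and 747 in those labelled WT. The groups did not overlap, and library 3 labelled WT stood far above the other two of its group. The mean was 22.3 ± 19.1 in libraries labelled Shox2-/- and 332 ± 359 in those labelled WT (SD, n = 3 each), a 14.9-fold lower mean with a log2 difference of -3.70 (SE 0.90, adjusted p = 0.227). These values rest on 3, 21 and 58 reads in libraries labelled Shox2-/- and on 79, 182 and 951 in those labelled WT, and without library 3 labelled WT the log2 difference was -2.84. Pde1c (chr6:56069804-56569103, minus strand) had 142, 228 and 239 normalized counts in libraries labelled Shox2-/-, against 73.0, 71.0 and 105 in those labelled WT. Every library labelled Shox2-/- was above every library labelled WT, with a log2 difference of 1.26 (SE 0.27, adjusted p = 0.208). The ratio of Pde1a to Pde1c was 0.0366, 0.0824 and 0.180 in libraries labelled Shox2-/-, against 1.80, 1.67 and 7.10 in those labelled WT, so the order of these 2 counts differed between the groups in all 6 libraries. The separation of this ratio follows from the 2 differences above and is no further result. Pde1b, the remaining gene of the family, had overlapping groups and a log2 difference of -0.15 (adjusted p = 0.689).

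Markers of some other cell types were also lower in the libraries labelled Shox2-/-, and those of others were mixed. Of 8 mesenchyme and fibroblast markers, 7 were lower in the libraries labelled Shox2-/- and 1, Pdgfra, was higher, and their summed level was 176395, 233685 and 278762 normalized counts there, against 378041, 373240 and 596043 in those labelled WT. That sum has the same lowest library and the same highest library as Pde1a and Adcy2. All 8 endoderm markers were lower, 1 of them with an unadjusted p under 0.05. Their summed levels ran between 182 and 2319 in libraries labelled Shox2-/- and between 2831 and 7880 in those labelled WT. Afp alone made up 7020 of the 7880, in library 3 labelled WT. All 8 epithelium markers were lower too, 5 of them with an unadjusted p under 0.05 (7.23% of all tested genes were lower at that p). Their summed levels overlapped, between 5865 and 16072 in libraries labelled Shox2-/- and between 8718 and 13313 in those labelled WT. All 7 pluripotent cell markers were lower, with sums between 587 and 838 in libraries labelled Shox2-/- and between 916 and 1314 in those labelled WT. Other lists were mixed: 4 of 6 endothelium markers were lower and 2 higher, and 4 of 7 erythroid and leukocyte markers were lower and 3 higher. Of 7 neural markers 5 were lower and 2 higher, and the same counts held for 7 smooth muscle markers. The part of these cells in the differences was not tested, and in bulk RNA fewer cells of a type and less RNA per cell cannot be told apart.

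**Figure D2:**
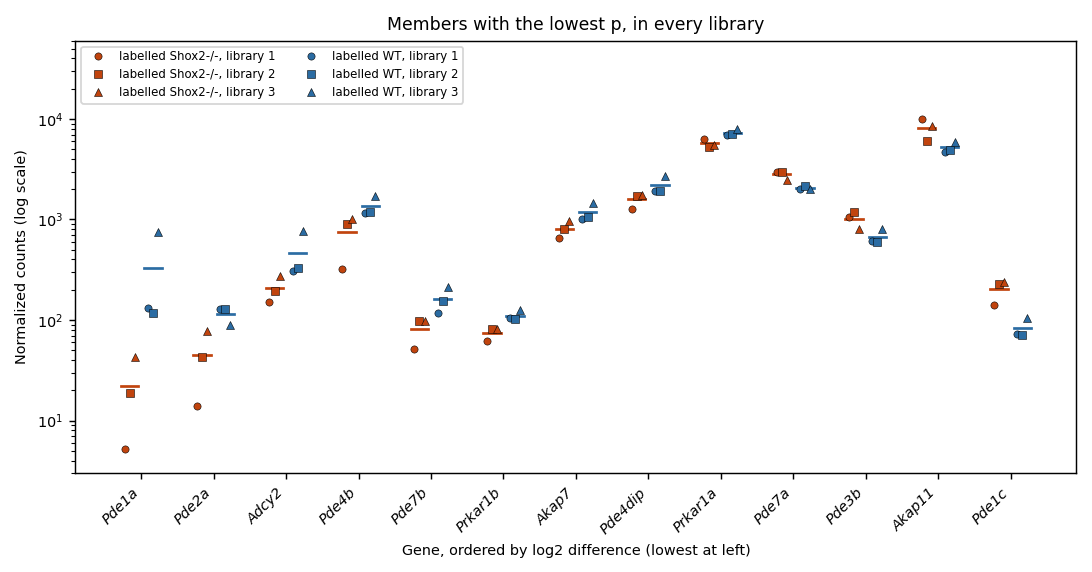
Normalized counts on a log axis in each library for the 13 genes with an unadjusted p under 0.05, libraries labelled Shox2-/- (orange) left of those labelled WT (blue), with short lines at the group means and a marker shape for each library of a group. Pde1a shows the widest gap and Pde3b is the only one of the 13 whose groups overlap.

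Of the 8 phosphodiesterase genes whose enzymes hydrolyse both nucleotides, the PDE1 family included, 4 were higher and 4 lower; Pde10a and Pde11a had overlapping groups, with log2 differences of -0.03 and 0.43. Pde2a, the cyclic GMP-stimulated enzyme, had 13.8, 42.9 and 77.0 normalized counts in libraries labelled Shox2-/-, against 128, 130 and 88.7 in those labelled WT. The groups lay apart, though library 3 of each came close to the other, and the log2 difference of -1.63 (SE 0.57, adjusted p = 0.300) was -0.97 without library 1 labelled Shox2-/-. Its identifier shares 95.6% of its exon bases with a second annotated Pde2a gene, so the level is uncertain. Pde3b, a cyclic GMP-inhibited enzyme that acts in insulin signalling, had 1062, 1191 and 799.9 normalized counts in libraries labelled Shox2-/-, against 606, 604 and 806 in those labelled WT. Its groups overlapped through library 3 of each group, with a log2 difference of 0.59 (SE 0.19, adjusted p = 0.285). Pde3a, the related gene prominent in heart muscle, had 5446, 6817 and 6775 normalized counts in libraries labelled Shox2-/-, against 6244, 6355 and 4730 in those labelled WT, which overlap (log2 difference 0.14, adjusted p = 0.700).

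Among the 8 genes of enzymes that hydrolyse mainly cyclic AMP, 5 were higher and 3 lower. Pde7a, which encodes a rolipram-insensitive enzyme, had 2976, 2947 and 2485 normalized counts in libraries labelled Shox2-/-, against 2032, 2153 and 2029 in those labelled WT. No value of one group reached the other, and the log2 difference was 0.43 (SE 0.11, adjusted p = 0.227). Its relative Pde7b lay in the other direction, with 51.9, 97.4 and 97.0 normalized counts in libraries labelled Shox2-/-, against 118, 156 and 215 in those labelled WT (log2 difference -0.99, SE 0.33, adjusted p = 0.289). Pde4b, of the rolipram-sensitive family, had 320, 894 and 1021 normalized counts in libraries labelled Shox2-/-, against 1172, 1190 and 1695 in those labelled WT. Library 1 labelled Shox2-/- was far below the other 5, and the log2 difference of -1.004 (SE 0.42, adjusted p = 0.349) was -0.48 without it. Pde4a was higher without overlap, with a mean of 181 ± 32.3 normalized counts in libraries labelled Shox2-/- and 134 ± 31.7 in those labelled WT (SD, n = 3 each; adjusted p = 0.433). Pde4c, Pde4d, Pde8a and Pde8b had overlapping groups, with log2 differences between -0.11 and 1.01.

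The 4 tested genes of enzymes that hydrolyse mainly cyclic GMP all had overlapping groups. Pde5a, the target of sildenafil, averaged 2533 ± 478 normalized counts in libraries labelled Shox2-/- and 3043 ± 188 in those labelled WT (SD, n = 3 each; log2 difference -0.28, adjusted p = 0.416). Pde9a, Pde6b and Pde6c had log2 differences of 0.20, -0.27 and -0.83. Some genes carry the symbol without being cyclic nucleotide phosphodiesterases. Pde4dip, or myomegalin, a centrosome and Golgi protein, had 1284, 1720 and 1744 normalized counts in libraries labelled Shox2-/-, against 1920, 1935 and 2683 in those labelled WT, without overlap (log2 difference -0.46, SE 0.18, adjusted p = 0.332). Pde6d, a chaperone of prenylated proteins, had 851, 708 and 961 normalized counts in libraries labelled Shox2-/-, against 843, 869 and 937 in those labelled WT, and Pde12, a mitochondrial enzyme that shortens poly(A) tails, had a log2 difference of 0.08.

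Levels of different genes were compared per kilobase of exon, counting all annotated exons, which understates genes with long rarely used exons such as Pde1c. On that scale the 21 catalytic phosphodiesterase genes summed to 1739 ± 104 in libraries labelled Shox2-/- and 1697 ± 44.7 in those labelled WT (SD, n = 3 each), a difference within the spread. Pde3a made up 28.6% ± 2.61 of that sum in libraries labelled Shox2-/- and 26.7% ± 3.69 in those labelled WT, the largest share in each group. Pde7a came next in libraries labelled Shox2-/- with 23.3%, 22.2% and 17.3% of the sum, against 15.5%, 15.9% and 15.8% in those labelled WT, where Pde5a was second. The share of Pde1a was 0.0524%, 0.182% and 0.386% in libraries labelled Shox2-/-, against 1.29%, 1.13% and 7.50% in those labelled WT. The 8 genes of enzymes acting mainly on cyclic AMP summed to 561, 595 and 586 per kilobase in libraries labelled Shox2-/-, against 506, 528 and 550.4 in those labelled WT, without overlap. That sum averaged 581 in libraries labelled Shox2-/- and 528 in those labelled WT. Pde7a alone, which averaged 362 and 267, had a wider gap, so the mean of the rest together was lower in the libraries labelled Shox2-/-. The groups of that rest overlapped. Pde4b averaged 70.6 per kilobase in libraries labelled Shox2-/- and 128 in those labelled WT. Pde7b and Pde8b also had lower means there, while Pde4a, Pde4c, Pde4d and Pde8a had higher ones. The large fold difference at Pde1a concerned a gene of small share in 5 of the 6 libraries.

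**Figure D3:**
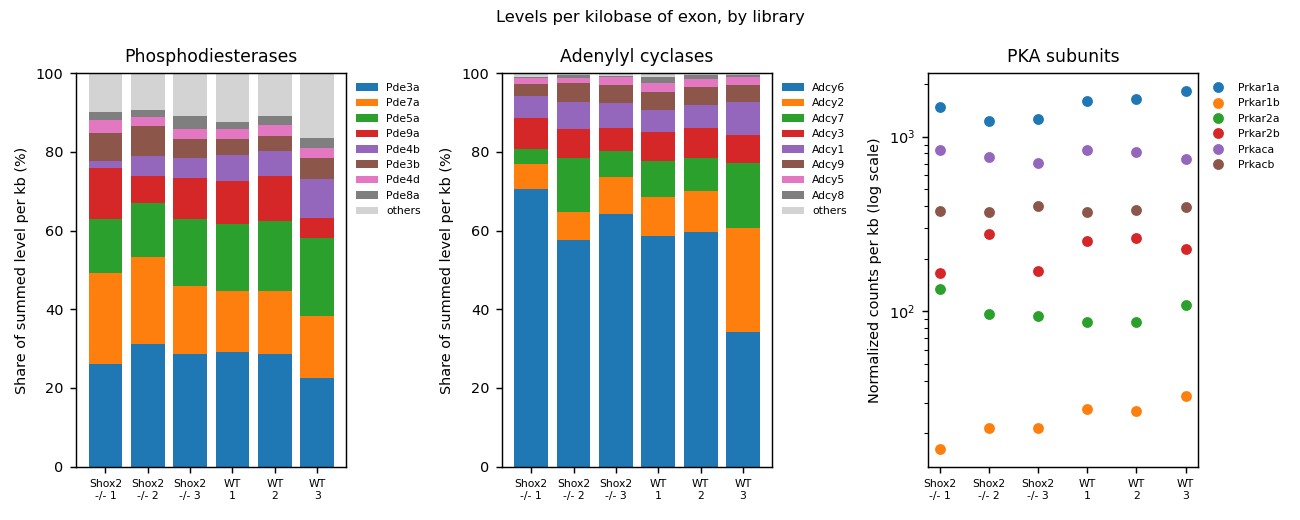
Stacked bars give the share (%) of the summed level per kilobase for phosphodiesterases and adenylyl cyclases in each library, and points give normalized counts per kilobase of PKA subunit genes on a log axis, libraries labelled Shox2-/- left of those labelled WT. Adcy6 takes between 57.5% and 70.6% of the cyclase sum in libraries labelled Shox2-/- and between 34.1% and 59.5% in those labelled WT.

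Of the 9 tested adenylyl cyclases, 8 were lower in the libraries labelled Shox2-/-, and 1 of the 9, Adcy2, had an unadjusted p under 0.05, a share of 11.1% against 14.2% of all tested genes. Adcy2, a cyclase stimulated by G protein beta-gamma subunits, had 152, 193 and 276 normalized counts in libraries labelled Shox2-/-, against 309, 326 and 762 in those labelled WT. The groups did not overlap, and the log2 difference of -1.08 (SE 0.38, adjusted p = 0.301) was -0.66 without library 3 labelled WT. Adcy7, of the same subfamily, had 151, 596 and 313 normalized counts in libraries labelled Shox2-/-, against 455, 426 and 757 in those labelled WT, so the groups overlapped (log2 difference -0.79, SE 0.48, adjusted p = 0.477). Its difference ran between -1.28 without library 2 labelled Shox2-/-, where the unadjusted p was under 0.05, and -0.29 without library 1 labelled Shox2-/-. Adcy6, a calcium-inhibited cyclase and one of the main cardiac forms, had 2779, 2507 and 2997 normalized counts in libraries labelled Shox2-/-, against 2919, 2995 and 1580 in those labelled WT. It was the only tested cyclase with a positive log2 difference, 0.20 (adjusted p = 0.737), which was -0.10 without library 3 labelled WT. Adcy3, an olfactory and ciliary cyclase, was lower without overlap, with a mean of 279 ± 26.8 normalized counts in libraries labelled Shox2-/- and 333 ± 23.4 in those labelled WT (SD, n = 3 each; adjusted p = 0.447). It shares 22.1% of its exon bases with Cenpo on the opposite strand, and no source used here says that reads were counted by strand. The calcium-stimulated Adcy1 and Adcy8, the cardiac Adcy5, Adcy9 and the bicarbonate-sensitive Adcy10 had overlapping groups and log2 differences between -1.32 and -0.01, and Adcy10, at the upper end, was positive in 7 of 15 settings. Summed per kilobase, the cyclase genes came to 581, 643 and 689 in libraries labelled Shox2-/-, against 735, 742 and 683 in those labelled WT, ranges that overlap.

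Of the 4 regulatory subunit genes of PKA 3 were lower, and the catalytic subunit genes differed by less than the spread. Prkar1a (chr11:109649405-109669656, plus strand), the type I regulatory subunit whose loss causes Carney complex in humans, had 6372, 5292 and 5478 normalized counts in libraries labelled Shox2-/-, against 6921, 7043 and 7860 in those labelled WT. All 3 libraries labelled Shox2-/- were below all 3 labelled WT, the means being 5714 ± 577 in libraries labelled Shox2-/- and 7275 ± 511 in those labelled WT (SD, n = 3 each), with a log2 difference of -0.35 (SE 0.11, adjusted p = 0.285). Of the 79 tested genes within 5 Mb of it, 68 were also lower, with a median of -0.22, and the part of that shared shift in the value of Prkar1a was not tested. Its paralog Prkar1b had 62.3, 81.3 and 81.5 normalized counts in libraries labelled Shox2-/-, against 105, 102 and 125 in those labelled WT, again without overlap (log2 difference -0.56, SE 0.21, adjusted p = 0.321). Type II is the form that most anchoring proteins bind best. Prkar2a had 858, 612 and 602 normalized counts in libraries labelled Shox2-/-, against 553, 550.1 and 696 in those labelled WT, which overlap (log2 difference 0.19, adjusted p = 0.645). Prkar2b had 607, 1014 and 618 normalized counts in libraries labelled Shox2-/-, against 924, 959 and 835 in those labelled WT, with overlap through library 2 labelled Shox2-/- (log2 difference -0.32, adjusted p = 0.503).

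Prkaca, the catalytic subunit that predominates in heart, had 2092, 1898 and 1746 normalized counts in libraries labelled Shox2-/-, against 2078, 2031 and 1857 in those labelled WT. Prkacb, the other main catalytic subunit, had 3273, 3262 and 3498 normalized counts in libraries labelled Shox2-/-, against 3223, 3348 and 3484 in those labelled WT. Both pairs of groups overlapped, and the 95% intervals of the log2 differences were -0.31 to 0.19 for Prkaca and -0.21 to 0.21 for Prkacb. Per kilobase, the 4 regulatory genes summed to 1.48, 1.43 and 1.41 times the sum of both catalytic genes in libraries labelled Shox2-/-, against 1.64, 1.67 and 1.92 times in those labelled WT. The ratio averaged 1.44 ± 0.0339 in libraries labelled Shox2-/- and 1.74 ± 0.151 in those labelled WT (SD, n = 3 each), without overlap, and Prkar1a made up 79.9% of the regulatory sum in libraries labelled Shox2-/- and 81.9% in those labelled WT. The separation of the regulatory to catalytic ratio therefore follows mainly from the difference of Prkar1a given above and is no further result. The pseudogene Prkaca-ps1, whose reads cannot be told with certainty from those of Prkaca, had overlapping groups.

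Among the anchoring proteins 6 of the 13 tested were higher and 7 lower. Akap11 (chr14:78492246-78536808, minus strand), which binds PKA, protein phosphatase 1 and glycogen synthase kinase 3, had 10088, 5979 and 8560 normalized counts in libraries labelled Shox2-/-, against 4730, 4938 and 5948 in those labelled WT. The groups did not overlap, library 2 labelled Shox2-/- lying just above library 3 labelled WT, and the log2 difference was 0.63 (SE 0.20, adjusted p = 0.281). Akap7, a small anchor that brings PKA to calcium channels and phospholamban in heart cells, had 651, 796 and 967 normalized counts in libraries labelled Shox2-/-, against 1000.8, 1060 and 1472 in those labelled WT, without overlap (log2 difference -0.55, SE 0.20, adjusted p = 0.306). Akap8, a nuclear anchor, had 3612, 3432 and 3226 normalized counts in libraries labelled Shox2-/-, against 3170, 3070 and 3030 in those labelled WT, a narrow separation (log2 difference 0.15, adjusted p = 0.486). Akap12, or gravin, a scaffold beside beta-adrenergic receptors and the anchor with the highest level per kilobase, had 6779, 6090 and 6476 normalized counts in libraries labelled Shox2-/-, against 6003, 6294 and 10438 in those labelled WT. Its groups overlapped, and its log2 difference of -0.19 was 0.07 without library 3 labelled WT. The 9 others, with mitochondrial Akap1, the muscle anchor Akap6 and centrosomal Akap9 among them, had overlapping groups and log2 differences between -0.10 and 0.40. Akap2 shares 84.4% of its exon bases with Pakap on the same strand, so its low level is uncertain.

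Akap11 did not stand alone on its chromosome. Of the 37 other tested genes within 5 Mb, 36 were higher in the libraries labelled Shox2-/-, 21 of them without overlap (12.8% of all tested genes were higher without overlap). The median log2 difference of the 37 was 0.59, close to the 0.63 of Akap11. Relative to the mean of the libraries labelled WT, the median shift of these neighbours was 0.77, 0.38 and 0.86 in libraries 1, 2 and 3 labelled Shox2-/-, an order of libraries in which 2 is lowest, as for Akap11 itself. For the windows of the 51 other tested genes, the median ran between -0.27 and 0.16. Abcc4, which encodes a cyclic AMP export pump and lies on the same chromosome (chr14:118482692-118706219, minus strand), had 90.0, 146 and 85.2 normalized counts in libraries labelled Shox2-/-, against 287, 292 and 265 in those labelled WT (log2 difference -1.43, SE 0.24, adjusted p = 0.170). Of its 32 tested neighbours within 5 Mb, 29 were lower, with a median of -0.40. The part of the neighbourhood in either difference was not tested.

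**Figure D4:**
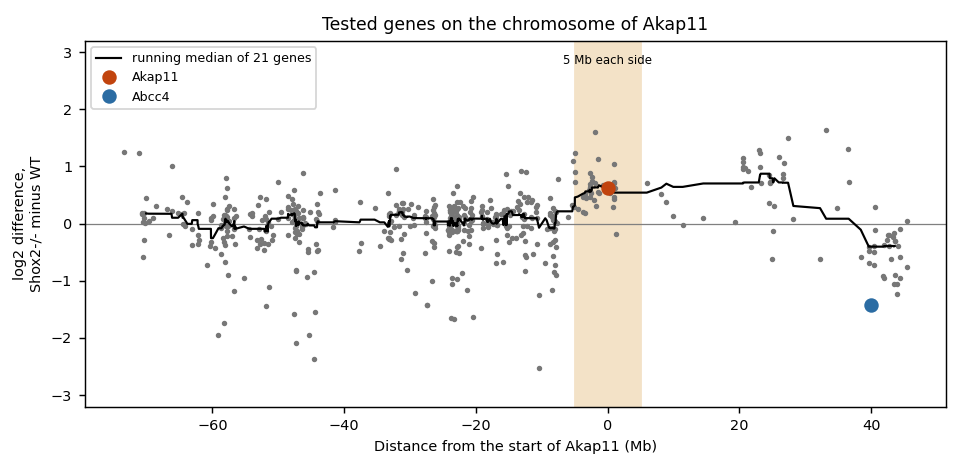
Log2 difference (vertical axis, Shox2-/- minus WT) of the 554 tested genes on the chromosome of Akap11 by distance from its start in Mb, with a running median of 21 genes as a line and 5 Mb on each side shaded. Genes around Akap11 lie mostly above 0 and those around Abcc4 mostly below it.

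Genes around these enzymes in the pathway were taken from lists chosen with earlier results of these data known, and none was called. Of 13 genes known to be induced through CREB, 10 were tested and all 10 had a negative log2 difference, with a median of -0.67 against 0.01 over all tested genes; 6 had an unadjusted p under 0.05, all lower (7.23% of all tested genes were), and 4 were lower without overlap (10.8% of all tested genes were). Egr1, an immediate-early zinc finger factor, had 1230, 1445 and 1726 normalized counts in libraries labelled Shox2-/-, against 2211, 2263 and 2176 in those labelled WT (log2 difference -0.61, SE 0.14, adjusted p = 0.214). The clock gene Per1 had 202, 164 and 267 normalized counts in libraries labelled Shox2-/-, against 413, 394 and 302 in those labelled WT (log2 difference -0.82, SE 0.22, adjusted p = 0.249). For Nr4a1, whose promoter is printed above, the values were 309.7, 298 and 682 in libraries labelled Shox2-/-, against 898, 862 and 737 in those labelled WT (log2 difference -1.06, SE 0.31, adjusted p = 0.260). The groups of these 3 genes lay apart, that of Nr4a1 narrowly. Of the 10 genes, 8 had a RefSeq promoter and all 8 held the TGACG core in at least 1 window, against 19.8% of all genes. By window it was 60.0% of their 15 windows, against 17.8% of all windows. The list was chosen for known induction through CREB, so these shares may follow from that choice. They say nothing about the values measured here. Lower values were found for 8 of the 10 without library 3 labelled WT and for 9 of the 10 without library 2 labelled Shox2-/-. Most of these genes are also known to answer to serum and stress signals. Creb1 itself and the other 8 tested genes of the CREB family and its coactivators had overlapping groups, with a median of 0.04.

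Receptors and G proteins showed no shared direction. Of 16 tested receptors that raise cyclic AMP, 7 were higher and 9 lower, and Ptger4, a prostaglandin E2 receptor, had 55.4, 48.3 and 71.8 normalized counts in libraries labelled Shox2-/-, against 108, 124 and 133 in those labelled WT (log2 difference -1.06, SE 0.23, adjusted p = 0.208). Of 11 that lower cyclic AMP, 8 were higher and 3 lower. Ptger3, another prostaglandin E2 receptor, had 50.2, 147 and 135 normalized counts in libraries labelled Shox2-/-, against 309, 276 and 244 in those labelled WT (log2 difference -1.45, adjusted p = 0.252), while Adra2c, an alpha-adrenergic receptor, had 41.5, 118 and 85.9 in libraries labelled Shox2-/-, against 26.6, 30.6 and 11.0 in those labelled WT (log2 difference 1.80, adjusted p = 0.253). The adenosine receptor gene Adora1 had 46.7, 106 and 101 normalized counts in libraries labelled Shox2-/-, against 26.6, 28.7 and 58.1 in those labelled WT, with overlap. All 7 G protein alpha subunit genes, Gnai3 the highest, had overlapping groups, 5 higher and 2 lower.

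On the list of other cyclic AMP effectors, 5 of 11 were higher and 6 lower, and the Popeye domain genes, which encode cyclic AMP-binding membrane proteins of heart muscle, were among those that were higher. Bves had 1343, 1032 and 992 normalized counts in libraries labelled Shox2-/-, against 750.2, 773 and 320 in those labelled WT (log2 difference 0.96, SE 0.34, adjusted p = 0.300). Popdc2 had 1426, 1410 and 1894 normalized counts in libraries labelled Shox2-/-, against 1212, 1196 and 603 in those labelled WT (log2 difference 0.71, SE 0.28, adjusted p = 0.333). Both lay apart between the groups, with library 3 labelled WT the lowest, as it was for the summed cardiomyocyte markers. Library 1 labelled Shox2-/- had the next lowest marker sum, 14981. It nevertheless had the highest value of Bves and a Popdc2 value above every library labelled WT. The part of cardiomyocytes in these differences was not tested. Rapgef6, a Rap exchange factor on the list that is not known to bind cyclic AMP, was lower without overlap (log2 difference -0.28, adjusted p = 0.303). On the list of cardiac PKA substrates 9 genes were tested, of which 7 were higher and 2 lower, none with an unadjusted p under 0.05. The most abundant, Tnni1, had a log2 difference of 0.46 (adjusted p = 0.451); it encodes slow skeletal troponin I, which lacks the extension that carries the PKA sites of cardiac troponin I. Of the PKA inhibitor genes Pkia had overlapping groups (log2 difference 0.07) and Pkig was higher without overlap (0.28, adjusted p = 0.368). Of 8 tested genes that make or obey cyclic GMP, 3 were higher and 5 lower. The cyclic GMP-dependent kinase gene Prkg2 had 623, 457 and 401 normalized counts in libraries labelled Shox2-/-, against 246, 267 and 215 in those labelled WT (log2 difference 1.00, adjusted p = 0.192). Prkg1 averaged 2098 ± 572 normalized counts in libraries labelled Shox2-/- and 1351 ± 89.0 in those labelled WT (SD, n = 3 each; adjusted p = 0.287), and Npr2, a natriuretic peptide receptor, averaged 418 ± 49.7 in libraries labelled Shox2-/- and 600.1 ± 85.6 in those labelled WT (adjusted p = 0.274). Each of the 3 had groups that did not overlap, as did 23.6% of all tested genes.

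**Figure D5:**
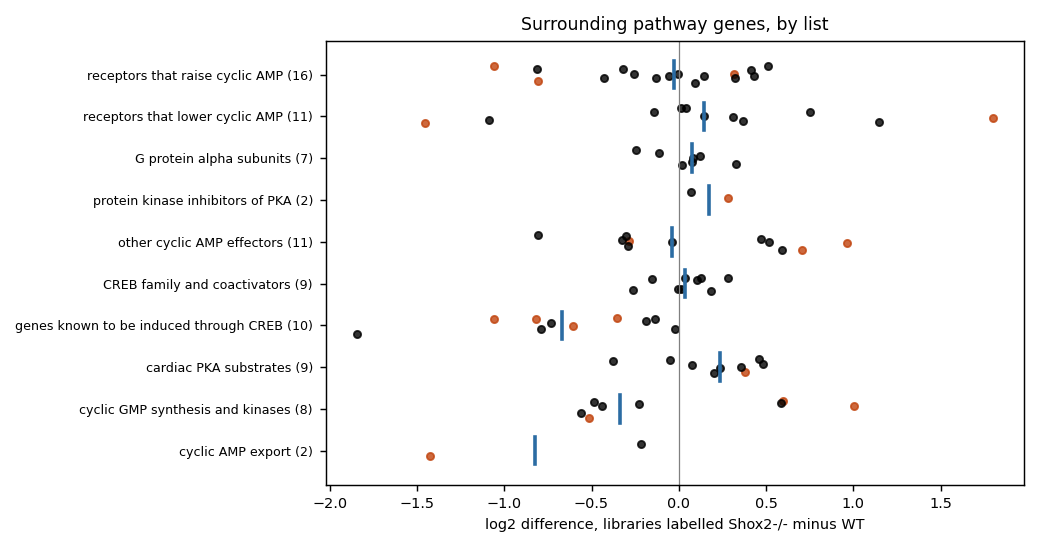
Log2 difference (horizontal axis, Shox2-/- minus WT) of every tested gene of each surrounding list, the number tested in brackets, with blue bars at the list medians and genes whose groups do not overlap in orange. All 10 genes known to be induced through CREB lie below 0, while the receptor and G protein lists lie on both sides.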

How the data were processed

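RNA sequencing values of 3 libraries labelled Shox2-/- and 3 labelled WT were analysed. The authors deposited 1 value per gene and library. The submitters' processing notes name build mm10 and, in no stated role, DESeq2 1.14.0, HTSeq, BWA and CASAVA 1.8.2. The deposited values write decimals with a comma and are normalized counts: whole multiples of 1 step per library, which gave back whole reads for 100% of low values within 0.1 reads.

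Values were analysed as log2(value + 1), which understates differences of low genes, with limma 3.58.1 in R 4.3.3 (group term, empirical Bayes with trend, two-sided, Benjamini-Hochberg adjustment), for 17034 genes with at least 10 in at least 3 libraries, after testing on simulated data. The simulated data had the same fixed spread for every gene, so they cannot show how the fit behaves with the spread found here. Calls were made at an adjusted p under 0.05. Positions and exon lengths came from GENCODE M21 (GRCm38), which holds 30484 of the 30631 identifiers and all 59 genes described. The genes and lists were chosen with earlier results of these data known. Genes named with every library's value are those with an unadjusted p under 0.05, the PKA subunits and the 3 highest per kilobase of each class, and in each surrounding list up to 3 with an unadjusted p under 0.05, else the highest. An exact permutation test of 3 against 3 cannot go below p = 0.10. Alternatives were other pseudocounts, filters and scalings, voom on recovered reads, libraries left out, averaged or blocked.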

Additional observations from a re-analysis of the deposited data

How the results depend on the processing

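Of the 13 cyclic AMP genes with an unadjusted p under 0.05, none changed direction in any of the 16 settings, the reported one included; Pde1a, Pde1c and Pde7a kept such a p in all 16, Akap11 in 15 and Pde4b in 9. Over all tested genes, 2 were called with no filter on low values, 303 with voom and sample quality weights on recovered reads (chosen after seeing the data), and 0 to 51 when 1 library was left out, 51 without library 2 labelled Shox2-/-. The weighted voom fit called 2 of the 52 genes, Pde1c (log2 difference 1.54, adjusted p = 0.0127) and Akap11 (0.74, adjusted p = 0.0436). With 1 library left out, 8 to 15 of the 52 had an unadjusted p under 0.05 (8.73% to 16% of all tested genes did), and 4 to 10 did so with lower values in the libraries labelled Shox2-/-. With libraries 1 and 2 labelled WT averaged, the number was 10 (9.3% of all tested genes), of which 9 were shared with the reported 13. Pde2a, Pde3b, Pde4b and Prkar1b were no longer among them. A replicate block for the libraries that share Diff9 in their titles, a number whose meaning is not stated, gave 14 such genes (14.8% of all tested genes) and 0 calls. The sign turned in at least 1 setting for 19 of the 52 genes, whose reported log2 differences were all within 0.27 of 0; Adcy10 turned in 7 settings and Akap2 in 5, and Akap6 ran between -0.38 and 0.40. Of the genes given with every library's value or named from a list, 6 turned. In the weighted voom fit Prkacb was at 0.0296, Adcy6 at -0.0623 and Akap12 at 0.0451, and Pkia was at -0.0196 with averaging and -0.0527 with the block. Leaving out 1 library gave ranges of -0.13 to 0.0047 for Prkaca, -0.0358 to 0.0252 for Prkacb, -0.18 to 0.036 for Pde6d, -0.10 to 0.36 for Adcy6, -0.33 to 0.0676 for Akap12 and -0.0559 to 0.25 for Pkia; the cause was not tested. The planned edgeR and DESeq2 fits and voom with TMM scaling were not run. Library 1 of each group was the shallowest, so genes of a few reads there, Pde1a among them, carry the largest counting error.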
